A study of Homo sapiens with 20 samples.

Results

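Ribosome biogenesis factors are the proteins that make, modify and assemble the RNA and protein parts of the ribosome, mostly in the nucleolus. The list held 40 genes chosen by name: subunits of small nucleolar ribonucleoproteins (snoRNPs), factors of RNA polymerase I (Pol I) transcription, factors that process the small or the large ribosomal subunit, nucleolar proteins of several roles, and the polyamine enzymes SRM and ODC1. Of the 40, 35 had a probe set that names 1 gene, and these 35 were among the 13787 genes tested of 19775 genes with such a probe set. All 35 stood at or above the filter level on all 20 arrays. NOP56, DKC1, BOP1 and PPAN have only probe sets that name several genes, no probe set was named for GNL3, and these 5 were not analysed here.

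The values are log2 intensities from Affymetrix U133 Plus 2.0 arrays of established human lines of T-ALL, a leukaemia of T cell precursors: T-ALL1, KOPT-K, HPB-ALL, DND41 and CEM, which makes 5. Cells of each line were given NBD peptide or control peptide for 16 h, so every group had received a peptide, and each of the 10 groups had 2 arrays. The NBD peptide carries the NEMO-binding domain and keeps the regulatory subunit IKKγ from the kinases IKKα and IKKβ, which blocks canonical NF-κB signalling. The labels give the peptide dose as 100 µM in some fields and 100 mM in others, and leave unsaid whether a group's 2 arrays were separate cultures. The p-values therefore cover the spread among these arrays alone, and part of it may be technical. In such bulk samples, fewer cells that hold a transcript and less of it per cell cannot be told apart.

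A ribosome is built in the nucleolus, where Pol I transcribes a long precursor RNA from the ribosomal DNA. SnoRNPs guide chemical changes on that precursor, box C/D particles methylating riboses and box H/ACA particles turning uridine into pseudouridine, while large sets of assembly factors cut and fold it into the small and the large subunit. Many genes of this pathway, and the polyamine enzymes, are known targets of the transcription factor MYC, a driver of growth in T-ALL, which binds the E-box sequence CACGTG.

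Of the cell markers checked, 9 of 11 T cell markers were above the filter on all 20 arrays, with mean levels of 8.70 to 10.44 per array. The B cell, myeloid and fibroblast and epithelium lists each had 1 marker above it on all arrays, CD79B (5.10 to 6.57), ITGAM (5.03 to 5.86) and COL1A1 (6.78 to 7.67). The B cell list averaged 4.40 to 5.91 per array, with MS4A1 at 3.34 to 4.31 and CD79A reaching 11.46. The myeloid list averaged 4.17 to 4.68 and the fibroblast and epithelium list 4.27 to 4.78. The columns of T-ALL1 and KOPT-K were written with more decimals and had higher mean intensities than those of CEM, DND41 and HPB-ALL, so levels were compared only within these sets. The T-ALL1 control arrays stood apart in the log2 excess of the actin 3′ probe set over the 5′ one, which is larger where RNA is less intact. In T-ALL1 it was 1.07 and 0.99 with NBD and 3.16 and 2.05 with control peptide. In the other lines this log2 difference was 0.73 to 1.81 with NBD and 0.74 to 1.46 with control peptide. Over all lines it differed by -0.312 (NBD minus control, exact two-sided permutation test within lines, p = 0.174), and by 0.00362 without T-ALL1 (p = 0.957). The same measure for GAPDH was 0.77 and 0.21 in the T-ALL1 controls and 0.12 and 0.20 in T-ALL1 with NBD. In the other lines it was 0.10 to 0.40, so by GAPDH only T-ALL1 control 1 stood apart. The GAPDH measure differed by -0.0447 over all lines (same permutation test, p = 0.764).

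Promoters were searched for the E-box, since MYC is known to bind many genes of this pathway there. RefSeq promoter sequences (assembly GRCh38.p14, 250 bases before to 50 after the start) were found for 30 of the 35 genes, NOP58, NOLC1, TCOF1, RRP12 and RRS1 not being in the table. CACGTG, which is its own reverse complement and so was searched once for both strands, was in a promoter of 15 of the 30 genes (50%), against 12.3% of the 11028 genes tested that had a promoter there. By promoter rather than by gene, 15 of 37 (40.5%) held it, against 9.14% of 15853 promoters of genes tested and 7.26% of all 35116 promoters of that length in the table. The median GC content was 64.3% both for these genes' promoters and for those of all genes tested.

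The promoter windows below show where the motif sits in genes whose values are described further on. Capitals mark CACGTG, each is given 5′ to 3′ on the gene's own strand, and the SRM entry is the 250 bases before the gene's start while the others are 30 bases around a match.
SRM, chr1:11060019-11060268, minus strand: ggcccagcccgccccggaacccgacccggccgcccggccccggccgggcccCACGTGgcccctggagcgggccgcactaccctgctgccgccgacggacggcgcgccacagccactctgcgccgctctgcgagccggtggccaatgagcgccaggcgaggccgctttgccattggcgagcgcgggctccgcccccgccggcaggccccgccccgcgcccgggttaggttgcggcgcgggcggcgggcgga
ODC1, chr2:10448024-10448053, minus strand: ccgggccccgggCACGTGtgcggcgcgcct
ODC1, chr2:10447990-10448019, minus strand: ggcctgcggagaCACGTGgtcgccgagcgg
MRTO4, chr1:19251807-19251836, plus strand: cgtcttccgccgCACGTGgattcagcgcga
PNO1, chr2:68157885-68157914, plus strand: ggtgcagctgcgCACGTGtttcagccggca
RRP9, chr3:51941892-51941921, minus strand: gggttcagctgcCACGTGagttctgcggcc
UTP20, chr12:101280083-101280112, plus strand: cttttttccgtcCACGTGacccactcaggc
FBL, chr19:39846356-39846385, minus strand: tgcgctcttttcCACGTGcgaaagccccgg
PES1, chr22:30591880-30591909, minus strand: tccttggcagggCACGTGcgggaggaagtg

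Counted from the start of the gene, the first base of the match was at -199 in SRM and at -29 and 6 in ODC1. It was at 15 in MRTO4, 10 in PNO1, 7 in FBL, 14 in PES1, -5 in RRP9 and -10 in UTP20. Of the 17 matches in these genes' promoters, 14 (82.4%) were within 50 bases of the start, against 627 of 1631 (38.4%) in promoters of all genes tested. The other genes with a match were GAR1, NOP10, WDR43, BYSL, NOC3L, DDX21 and LYAR. No gene of the Pol I group had one in the 4 promoters found. NHP2 and NOP16, which fell on average as given below, were also among the genes without a match.

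**Figure D1:**
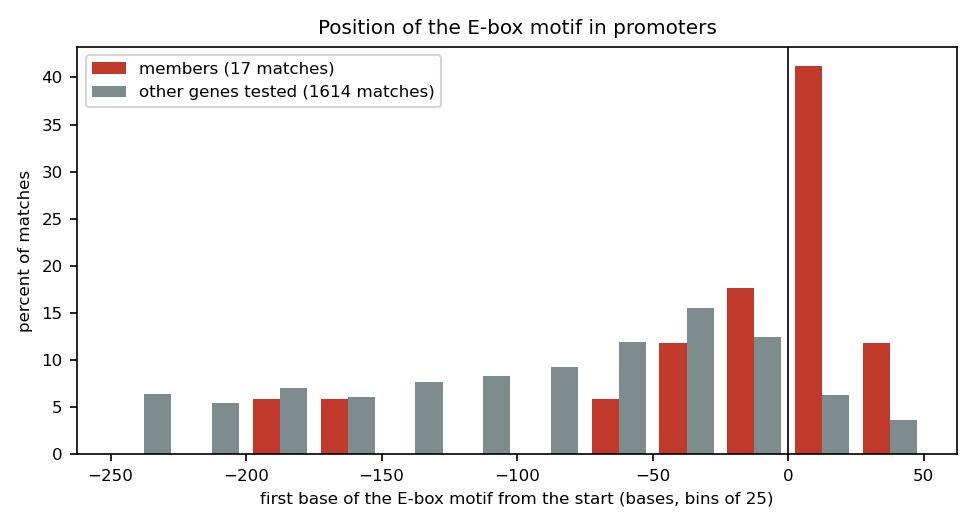
Percent of matches (y axis) by position of the E-box motif relative to the gene start (x axis, bases, bins of 25) in promoters of the listed ribosome biogenesis genes (red) and of the other genes tested (grey). Of the 17 matches in the listed genes, 14 lie within 50 bases of the start.

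Averaged over the 5 lines, 5 of the 35 genes fell with NBD and none rose. They were SRM, which makes spermidine, RRS1, which helps place the 5S RNA particle in the large subunit, NHP2, a core protein of box H/ACA snoRNPs, ODC1, which makes putrescine and is the first step of polyamine synthesis, and NOP16, a nucleolar factor of the large subunit. Among all genes tested 6.14% fell and 2.24% rose (limma, Benjamini-Hochberg adjusted p under 0.05). The changes were small, with the largest, in SRM, leaving the NBD arrays at 0.800 times the control level. On average 25 of the 35 genes were below 0, with a median log2 difference (NBD minus control) of -0.08, against a median of -0.01 and 55.2% below 0 over all genes. With the 5 lines as replicates none of the 35 was called in limma, nor was any of the 13787 genes (0%). The lowest adjusted p among the 35 in that fit was 0.205, and 5 were lower and 0 higher at an unadjusted p under 0.05 (8.39% and 3.496% of all genes).

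**Figure D2:**
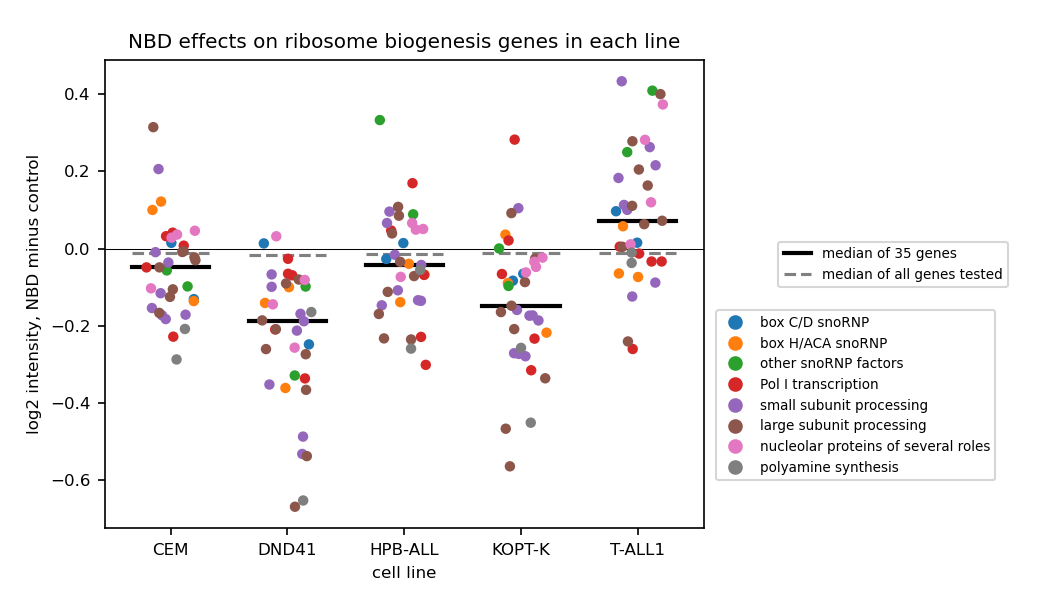
NBD minus control difference (y axis, log2) of each of the 35 genes tested (points, coloured by role) in each line, with their median (black) and the median of all genes tested (dashed). The median of the 35 is -0.19 in DND41 and -0.15 in KOPT-K, and 0.07 in T-ALL1.

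The number of genes called differed from line to line. In DND41 6 genes fell and none rose (1.74% of all genes fell and 0.733% rose), 33 of 35 were below 0, and the median was -0.19 against -0.02 over all genes. In KOPT-K 3 fell and none rose (0.384% of all genes fell and 0.892% rose), 29 were below 0, and the median was -0.15 against -0.01. None of the 35 passed in CEM (0.74% of all genes fell and 0.392% rose) or in HPB-ALL (0.646% fell and 0.138% rose). The CEM median was -0.05 with 24 below 0, and 1 gene was higher and 2 were lower at an unadjusted p under 0.05 (4.98% and 8.45% of all genes). The HPB-ALL median was -0.04 with 22 below 0, and 4 genes were lower at that unadjusted level (7.82% of all genes). T-ALL1 ran the other way, with 1 gene that rose and none that fell (1.15% of all genes rose and 2.3% fell), 24 above 0 and a median of 0.07 against -0.01 over all genes. The 2 T-ALL1 control arrays differed more from each other than other control pairs did. Their pooled SD over all genes tested was 0.226 (log2), against 0.121 to 0.148 in the other lines. The fit took 1 spread per gene for all groups, and the part of this in the T-ALL1 counts was not tested. The difference between lines itself passed the limma F-test for RRS1 (adjusted p = 0.00289) and PNO1 (adjusted p = 0.0386) of the 35, where 1.83% of all genes passed.

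**Figure D3:**
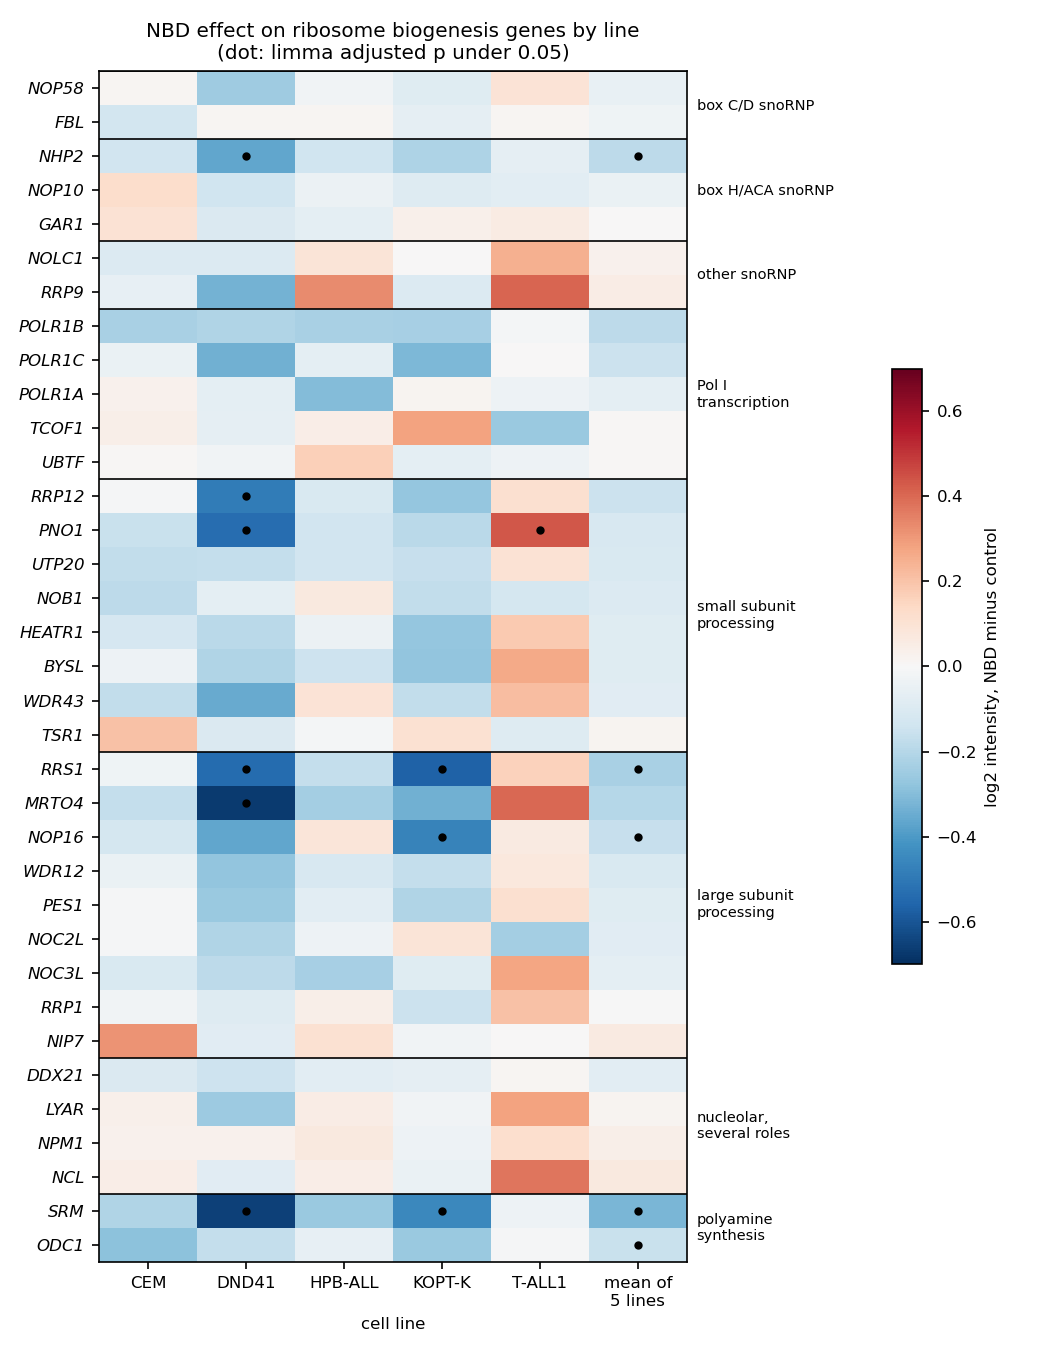
NBD minus control difference (log2, colour) of each of the 35 genes (rows, by role) in each line (columns), with a dot where the limma adjusted p is under 0.05. In DND41 SRM is at -0.65, RRS1 at -0.54 and MRTO4 at -0.67, and in T-ALL1 PNO1 is at 0.43.

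The NBD arrays lay below both control arrays for 28 of the 35 genes in DND41 and above them for none (27.8% and 21.6% of all genes). KOPT-K had 16 below and 1 above (23.6% and 18.9%), CEM had 16 and 5 (28.2% and 21%), and HPB-ALL had 14 and 7 (29.1% and 20.7%). T-ALL1 had 5 below and 17 above (24% and 18.7%). By the probe sets used, SRM, NHP2, ODC1 and POLR1B were below 0 in all 5 lines, 4 of 35 where 8.81% of all genes were. None of the 35 was above 0 in all 5 lines, where 4.26% of all genes were.

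SRM had the largest average difference of the 35. In DND41, SRM was 7.59 and 7.40 with NBD, against 8.15 and 8.15 with control peptide. In KOPT-K it was 9.39 and 9.15 with NBD, against 9.71 and 9.73 with control peptide. These groups did not overlap, and SRM fell in DND41 by 0.65 ± 0.09 (SE, limma adjusted p = 0.00143) and in KOPT-K by 0.45 ± 0.09 (adjusted p = 0.0192). The KOPT-K call of SRM was lost without KOPT-K control 1, control 2 or NBD 2 (adjusted p up to 0.210), whereas the DND41 call held without any single array. CEM had 8.41 and 8.46 with NBD, against 8.70 and 8.59 with control peptide, and HPB-ALL had 6.72 and 6.83 with NBD, against 7.004 and 7.07 with control peptide. In T-ALL1 SRM was 9.63 and 9.68 with NBD, against 9.69 and 9.69 with control peptide. The NBD arrays were lower in each line, by little in T-ALL1, and the average fell by 0.32 ± 0.04 (limma adjusted p = 0.000248).

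ODC1 was high everywhere, and its differences were smaller than those of SRM. In CEM it was 11.22 and 11.36 with NBD, against 11.59 and 11.56 with control peptide, and in KOPT-K 12.12 and 12.25 with NBD, against 12.46 and 12.42 with control peptide. In DND41 it was 11.27 and 11.09 with NBD, against 11.35 and 11.34 with control peptide. HPB-ALL had 10.97 and 10.98 with NBD, against 11.08 and 10.98 with control peptide, and T-ALL1 had 11.94 and 11.96 with NBD, against 11.94 and 11.97 with control peptide. The groups overlapped in T-ALL1 and stood apart in the other lines, and no single line passed the test. The average fell by 0.15 ± 0.03 (limma adjusted p = 0.0128).

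Among the snoRNP proteins, 1 of 7 fell on average and 1 in DND41, in both cases NHP2 (6.14% of all genes fell on average and 1.74% in DND41). Its levels in DND41 were 11.20 and 11.08 with NBD, against 11.51 and 11.50 with control peptide. In KOPT-K they were 12.20 and 12.06 with NBD, against 12.34 and 12.36 with control peptide, and in CEM 10.27 and 10.37 with NBD, against 10.49 and 10.42 with control peptide. HPB-ALL had 9.75 and 9.83 with NBD, against 9.97 and 9.89 with control peptide, and T-ALL1 had 11.76 and 11.78 with NBD, against 11.81 and 11.86 with control peptide. NHP2 was below its controls without overlap in all 5 lines. It fell by 0.36 ± 0.07 in DND41 (limma adjusted p = 0.0193) and by 0.18 ± 0.03 on average (adjusted p = 0.00319). The DND41 call was lost when any of 3 DND41 arrays was left out (both control arrays and NBD 2, adjusted p up to 0.198).

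The partners of NHP2 in the H/ACA particle did not pass, with GAR1 between -0.10 and 0.10 and NOP10 between -0.14 and 0.12 over the lines. The box C/D methyltransferase FBL lay between -0.13 and 0.02 over the lines and at -0.03 on average (limma adjusted p = 0.595). NOP58, the core protein that pairs with it, was between -0.25 and 0.10. RRP9, the U3 snoRNP protein, spread most of the snoRNP group, at -0.33 in DND41, 0.33 in HPB-ALL and 0.41 in T-ALL1. In T-ALL1 RRP9 was 7.88 and 7.93 with NBD, against 7.16 and 7.83 with control peptide, with 1 control array low. NOLC1, a chaperone of these particles, lay between -0.10 and 0.25. None of these passed in any line.

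No gene of Pol I transcription passed on average or in a line, and all 5 were below 0 in DND41. POLR1B, the second largest Pol I subunit, was at -0.18 on average (limma adjusted p = 0.0598), and POLR1C, which Pol I shares with Pol III, at -0.15 (adjusted p = 0.0730). Other probe sets of POLR1B were at 0.17, -0.33 and -0.06 in DND41 and at 0.11, -0.15 and -0.31 in HPB-ALL. POLR1A, the largest subunit, was 7.30 and 7.37 in HPB-ALL with NBD, against 7.60 and 7.67 with control peptide, and averaged -0.07 over the lines (adjusted p = 0.270). UBTF, which binds ribosomal DNA, was at 0.01 on average (adjusted p = 0.935), and TCOF1, which helps Pol I and pre-RNA methylation, at 0.01 (adjusted p = 0.963). In KOPT-K, TCOF1 was 7.91 and 7.95 with NBD, against 7.35 and 7.95 with control peptide, a difference of 0.28 with 1 control array low.

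Factors of the small subunit were below 0 in DND41 for 8 of 8 genes and above 0 in T-ALL1 for 6 of 8. PNO1, which binds the 3′ end of the 18S precursor, and RRP12, an export and processing factor, fell in DND41, and PNO1 rose in T-ALL1. In DND41 PNO1 was 8.66 and 8.52 with NBD, against 9.12 and 9.12 with control peptide. In T-ALL1 it was 9.82 and 9.75 with NBD, against 9.28 and 9.43 with control peptide. These are differences of -0.53 ± 0.11 in DND41 (limma adjusted p = 0.0230) and 0.43 ± 0.11 in T-ALL1 (adjusted p = 0.0483). CEM had 8.96 and 8.94 with NBD, against 9.07 and 9.13 with control peptide, and HPB-ALL had 8.34 and 8.43 with NBD, against 8.51 and 8.53 with control peptide. In KOPT-K the groups overlapped, at 9.31 and 9.49 with NBD, against 9.79 and 9.39 with control peptide, and the average over lines was -0.11 ± 0.05 (adjusted p = 0.187). The T-ALL1 call of PNO1 was lost without any of 17 of the 20 arrays (adjusted p up to 0.307), its difference between lines without any of 16 (up to 0.138), and its DND41 call without DND41 control 1, control 2 or NBD 2 (up to 0.218). Its 2 other probe sets disagreed in T-ALL1, at 0.35 and -0.18.

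RRP12 in DND41 was 5.39 and 5.18 with NBD, against 5.82 and 5.73 with control peptide, a fall of 0.49 ± 0.11 (limma adjusted p = 0.0323). These levels lie close to the filter level, a log2 intensity of 4.998. It was 6.98 and 6.81 in KOPT-K with NBD, against 7.27 and 7.06 with control peptide, and 7.18 and 7.13 in T-ALL1 with NBD, against 7.02 and 7.06 with control peptide. CEM and HPB-ALL overlapped, CEM at 6.01 and 6.10 with NBD, against 5.96 and 6.17 with control peptide, and HPB-ALL at 5.81 and 6.004 with NBD, against 5.94 and 6.09 with control peptide. The average was -0.15 ± 0.05 (adjusted p = 0.0725). The DND41 call was lost without DND41 control 1, control 2 or NBD 2 (adjusted p up to 0.318). Represented by another probe set, with those ending in _x_at or _s_at left out, RRP12 was at 0.19 in DND41 and 0.08 on average. Its remaining probe sets, also of low level, were at 0.16, -0.19 and -0.13 in DND41. UTP20, a scaffold of the early small subunit particle, was non-overlapping and below its controls in CEM, DND41, HPB-ALL and KOPT-K at -0.13 to -0.17, and at 0.10 in T-ALL1, with an average of -0.11 (adjusted p = 0.111). HEATR1 and WDR43, further parts of that particle, lay between -0.27 and 0.18 and between -0.35 and 0.22 over the lines. BYSL, an assembly factor, lay between -0.28 and 0.26, NOB1, which makes the final cut of the 18S RNA, between -0.18 and 0.07, and TSR1, a late maturation factor, between -0.10 and 0.21. These 5 passed in no line. Other probe sets of TSR1 were at -0.54, -0.37 and 0.06 in DND41, where the one used was at -0.10, and none of them passed there.

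Factors of the large subunit gave calls in DND41 and KOPT-K, and 8 of 9 were above 0 in T-ALL1. RRS1 was 8.54 and 8.56 in DND41 with NBD, against 9.14 and 9.04 with control peptide. In KOPT-K it was 9.48 and 9.50 with NBD, against 10.14 and 9.97 with control peptide. RRS1 fell by 0.54 ± 0.07 in DND41 (limma adjusted p = 0.00107) and by 0.56 ± 0.07 in KOPT-K (adjusted p = 0.000477). HPB-ALL had 7.41 and 7.42 with NBD, against 7.57 and 7.59 with control peptide, and CEM had 8.69 and 8.71 with NBD, against 8.73 and 8.73 with control peptide. In T-ALL1 both NBD arrays were above the controls, 9.38 and 9.44 with NBD, against 9.26 and 9.23 with control peptide, a difference of 0.16 ± 0.07 that did not pass (adjusted p = 0.184). The average fell by 0.23 ± 0.03 (adjusted p = 0.000466). Its difference between lines held without any single array (adjusted p of 0.00210 to 0.0138).

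NOP16 fell in KOPT-K, at 9.91 and 9.91 with NBD, against 10.45 and 10.30 with control peptide (-0.47 ± 0.09, limma adjusted p = 0.0272). In DND41 it was 8.53 and 8.49 with NBD, against 8.79 and 8.95 with control peptide, which did not pass (adjusted p = 0.0623). CEM had 8.01 and 8.07 with NBD, against 8.15 and 8.17 with control peptide. The groups overlapped in HPB-ALL, at 7.61 and 7.69 with NBD, against 7.41 and 7.72 with control peptide, and in T-ALL1, at 9.53 and 9.49 with NBD, against 9.51 and 9.39 with control peptide. The average fell by 0.16 ± 0.04 (adjusted p = 0.0304), a call lost when any of 11 arrays was left out (-0.192 to -0.132 over all 20 omissions, adjusted p up to 0.0720). The KOPT-K call was lost without KOPT-K control 1, NBD 1 or NBD 2 (adjusted p up to 0.224). Its other probe sets gave averages of -0.34 (adjusted p = 0.0103 over all probe sets), 0.07 and 0.08.

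MRTO4, which holds the place of the stalk protein P0 on the young large subunit, was 7.65 and 7.67 in DND41 with NBD, against 8.37 and 8.29 with control peptide. It fell there by 0.67 ± 0.14 (limma adjusted p = 0.0240), a call lost without any 1 of the 4 DND41 arrays (adjusted p up to 0.194). In T-ALL1 it was 9.85 and 9.73 with NBD, against 9.17 and 9.61 with control peptide, a difference of 0.40 ± 0.14 that did not pass (adjusted p = 0.126). KOPT-K had 9.10 and 9.19 with NBD, against 9.67 and 9.29 with control peptide, CEM had 8.41 and 8.37 with NBD, against 8.53 and 8.58 with control peptide, and HPB-ALL had 7.53 and 7.80 with NBD, against 7.84 and 7.96 with control peptide. MRTO4 therefore lay below its controls in 4 lines and above them in T-ALL1, and its average of -0.20 ± 0.06 did not pass (adjusted p = 0.0646). PES1, whose complex processes the large subunit RNA, was at -0.26 in DND41, -0.21 in KOPT-K and 0.11 in T-ALL1, and passed nowhere. WDR12, its partner, ranged from -0.27 in DND41 to 0.07, NIP7 from -0.08 to 0.31, NOC3L from -0.23 to 0.28, RRP1 from -0.15 to 0.20 and NOC2L from -0.24 to 0.09.

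**Figure D4:**
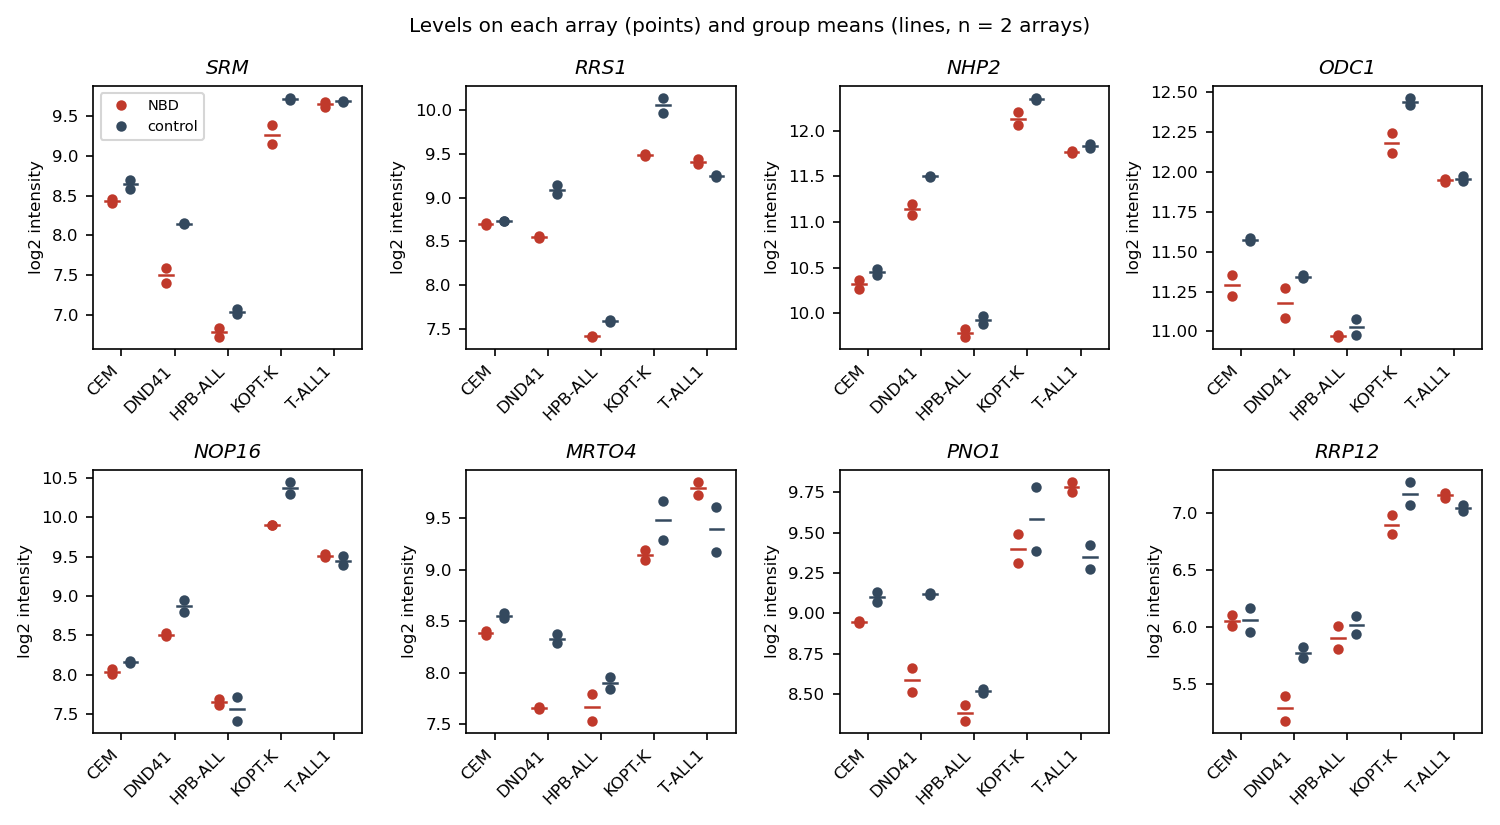
Log2 intensity on each array (points) and group means (lines, n = 2 arrays) of the 8 genes that passed on average or in a line, NBD in red left of control in blue. In DND41 the NBD arrays of SRM (7.59 and 7.40) lie below both control arrays (8.15 and 8.15), and in T-ALL1 those of PNO1 (9.82 and 9.75) lie above both (9.28 and 9.43).

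None of the 4 nucleolar proteins of several roles passed, on average or in a line. NPM1, a chaperone of ribosome assembly, lay between -0.03 and 0.12 over the lines and at 0.04 on average (limma adjusted p = 0.442). NCL, which binds the pre-ribosomal RNA, averaged 0.07 (adjusted p = 0.585) and was 12.20 and 12.05 in T-ALL1 with NBD, against 11.46 and 12.05 with control peptide. The T-ALL1 control array 1 thus lay far below the other 3 there, and the difference of 0.37 did not pass (adjusted p = 0.147). The helicase DDX21 lay between -0.14 and 0.01, and LYAR, a nucleolar zinc finger protein, between -0.26 and 0.28.

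The count of genes that fell on average was larger without T-ALL1 and smaller without CEM, DND41 or KOPT-K. Without the T-ALL1 line, 15 of the 35 genes fell on average (6.83% of all genes fell), with 30 below 0 and a median of -0.10. These were SRM, ODC1, NHP2, POLR1B, POLR1C, UTP20, HEATR1, BYSL, PNO1, RRP12, WDR12, NOP16, RRS1, NOC3L and MRTO4. Without CEM 3 fell (3.37% of all genes), without DND41 3 (4.4%), without HPB-ALL 5 (3%) and without KOPT-K 3 (4.91%). SRM and RRS1 fell in each of these 5 omissions, whereas NHP2 lost its call without DND41, ODC1 lost it without CEM and without KOPT-K, and NOP16 lost it without CEM, DND41 or KOPT-K. When 1 array was left out, its group kept 1 array, so only effect sizes are given here. The median of the 35 genes, averaged over lines, then ran from -0.08 to -0.06. It was lowest without KOPT-K control 2 and highest without T-ALL1 control 1. In T-ALL1 itself the median was 0.10 without control 1 and 0.06 without control 2. The actin 3′ to 5′ differences above are those of these T-ALL1 arrays, and their part in these counts and medians was not tested.

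**Figure D5:**
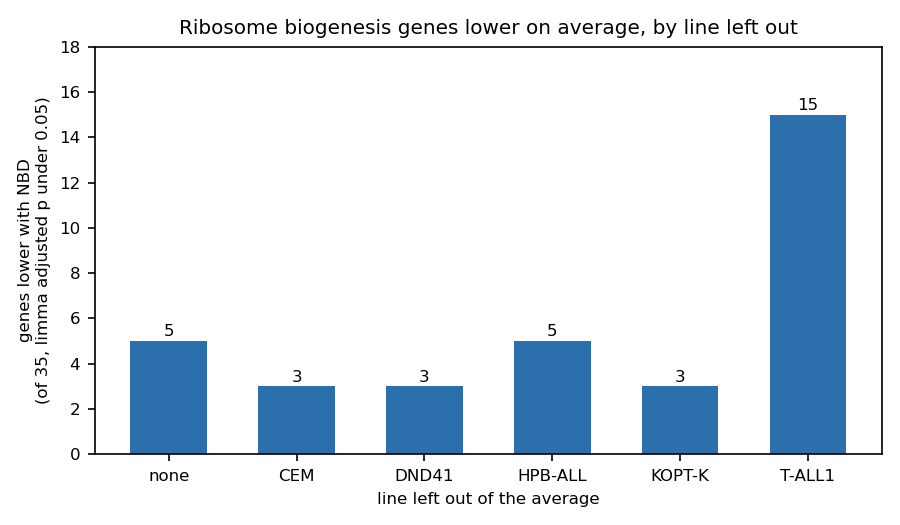
Number of the 35 genes that fell with NBD on average (bars, limma adjusted p under 0.05), over all 5 lines (none) and with each line left out. The count is 5 over all lines, 15 without T-ALL1 and 3 without CEM, DND41 or KOPT-K.

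MYC, which is not one of the 40 genes and is known to act on many of them, fell by 0.50 ± 0.09 on average (limma adjusted p = 0.00530). In DND41 it was 8.52 and 8.71 with NBD, against 9.65 and 9.65 with control peptide (-1.04, adjusted p = 0.0209). KOPT-K had 9.42 and 9.18 with NBD, against 10.01 and 10.02 with control peptide, a difference of -0.71 that did not pass (adjusted p = 0.156). The differences were -0.48 in CEM, -0.23 in HPB-ALL and -0.04 in T-ALL1, where the MYC arrays overlapped at 6.37 and 6.48 with NBD, against 6.88 and 6.04 with control peptide. The difference between lines did not pass for MYC (adjusted p = 0.264). Averaged over lines, the median difference was -0.08 for the 15 genes with the E-box and -0.08 for the 15 without it. The medians were -0.21 with it and -0.10 without in DND41, -0.16 and -0.15 in KOPT-K, -0.11 and -0.02 in CEM, -0.07 and -0.02 in HPB-ALL, and 0.11 and 0.00 in T-ALL1, given as a description only.

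The other genes of the pathway were read from 4 further lists, of which 101 of 105 genes were tested. On average 12 fell and 1 rose (6.14% and 2.24% of all genes), 72 were below 0 and the median was -0.04, against 55.2% below 0 and a median of -0.01 over all genes. Among 38 small subunit genes 6 fell and 1 rose. EMG1, which methylates the 18S RNA, fell by 0.30, RRP7A by 0.27, UTP25 by 0.25 and NOL6 by 0.25, and DDX52, a helicase of the small subunit, rose by 0.20 (limma adjusted p of 0.000685, 0.00163, 0.000685, 0.00839 and 0.00602 for EMG1, RRP7A, UTP25, NOL6 and DDX52). With probe sets ending in _x_at or _s_at left out, NOL6 was at 0.09. NAT10, which acetylates the 18S RNA, fell by 0.20 and IMP4 by 0.12.

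Of 41 large subunit genes 3 fell on average (7.32%, where 6.14% of all genes fell). They were MAK16 by 0.15, DDX54 by 0.16 and MDN1, the remodelling ATPase, by 0.23 (limma adjusted p of 0.00918, 0.0214 and 0.0378 for MAK16, DDX54 and MDN1). Of 12 further Pol I genes 1 fell (8.33%), POLR2L, a subunit that all nuclear RNA polymerases share, by 0.26 ± 0.04 (adjusted p = 0.00111). Of 10 snoRNP assembly genes 2 fell (20%), RUVBL2 by 0.13 and SHQ1, a chaperone of dyskerin, by 0.11. The SHQ1 call was lost in 17 of the 20 single-array omissions (adjusted p up to 0.102), that of MDN1 in 12 (up to 0.0847), that of RUVBL2 in 6 (up to 0.0582) and that of DDX54 without HPB-ALL control 2 or NBD 2 (up to 0.0520). In DND41 8 of the 101 fell (1.74% of all genes) and 84 were below 0 (54.5% of all genes), with a median of -0.16 against -0.02 over all genes. In T-ALL1 the median was 0.04, against -0.01 over all genes, and POLR2L fell there by 0.43 (adjusted p = 0.0204). None of 8 further polyamine genes passed on average, and SAT1, which acetylates spermidine for export, fell in DND41 by 0.30 (adjusted p = 0.0305).

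The control levels of most of these genes differed between lines, as did those of most genes tested. Among CEM, DND41 and HPB-ALL the control level of 29 of the 35 differed (limma F-test, 61.9% of all genes). SRM was 8.70 and 8.59 in CEM, 8.15 and 8.15 in DND41 and 7.004 and 7.07 in HPB-ALL (adjusted p = 2.66e-09), and NHP2 was highest in DND41 at 11.51 and 11.50. Between T-ALL1 and KOPT-K controls 23 of the 35 differed (54.2% of all genes), 4 higher in T-ALL1 (30.6%) and 19 lower (23.6%), with a median of -0.24 against 0.01 over all genes. RRS1 was 0.81 ± 0.07 lower in T-ALL1, NOP16 0.92 ± 0.09 lower and NCL 0.82 ± 0.14 lower, whereas NOC2L was 0.76 ± 0.10 higher. MYC was 3.55 ± 0.21 lower in T-ALL1 (adjusted p = 4.33e-09). The T-ALL1 control arrays in this comparison are those with the large actin 3′ to 5′ difference, whose part was not tested.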

How the data were processed

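Transcripts were measured on 20 Affymetrix U133 Plus 2.0 arrays, with 2 arrays in each of 10 groups (5 T-ALL lines, NBD or control peptide). The deposited table holds linear intensity values for 54675 probe sets, made with RMA per the submitters' processing notes, which give no version; all 20 columns were used and 0 left out. Labels say that RNA was amplified from 20 ng of total RNA. Values have up to 7 decimals in the KOPT-K and T-ALL1 columns and 2 in the others, so the columns appear to come from separate normalizations, which no source used here states.

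Values were taken to log2. A probe set was named only where the platform table gives 1 gene (41097 probe sets, 41043 found in GRCh38.p14 gene tables). For each of 19775 genes the probe set of highest mean was used, and 13787 genes reaching an intensity of 31.96 on at least 2 arrays were kept. Of the listed genes, 21 had other probe sets, 42 in all. Averaged over lines, 23 of these 42 had the same sign as the probe set used, so the values given are those of 1 probe set per gene. Effects (NBD minus control) were fitted with limma 3.58.1 in R 4.3.3 on all 20 arrays, with 1 mean per group (10 residual and 3.42 prior degrees of freedom) and Benjamini-Hochberg adjustment over all genes at 0.05. A further fit took lines as replicates (residual degrees of freedom 4, prior 4.18). RNA integrity was compared with an exact two-sided permutation test over 7776 assignments. Arrays give no read depth; their number limits the precision.

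The genes, lists and tests were chosen with earlier results of these data known. Named with values per array were genes past the threshold on average, between lines or in a line. Always named were FBL, NCL, NPM1, POLR1A, UBTF, TCOF1, UTP20, PES1, SRM, ODC1 and MYC, with values per array for some. Of each further list, the genes past the threshold with the lowest p were named, up to a set number per list. For the small subunit list these were EMG1, UTP25, RRP7A, DDX52 and NOL6. NAT10, IMP4 and SAT1 were named after their values were seen. The procedure was tested on simulated data.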

Additional observations from a re-analysis of the deposited data

Results flagged for a closer look

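The NBD difference of RRS1 differed between the lines (limma F-test, adjusted p = 0.00289). It was -0.54 in DND41, -0.56 in KOPT-K, -0.17 in HPB-ALL, -0.03 in CEM and 0.16 in T-ALL1. That of PNO1 also differed (adjusted p = 0.0386), at -0.53 in DND41, -0.19 in KOPT-K, -0.14 in HPB-ALL, -0.15 in CEM and 0.43 in T-ALL1. The PNO1 result is the weaker one. It was lost in 16 of the 20 single-array omissions, whereas that of RRS1 held in each. The other probe sets of PNO1 disagreed in direction in T-ALL1.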

How the results depend on the processing

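Single arrays were left out in turn, which leaves 1 array in the group concerned. The number of all genes that passed on average moved with these omissions as well. The counts below therefore describe how stable the calls are, and nothing particular to the 35 genes. The number of the 35 genes that fell on average then ran from 4 to 10 and that of genes that rose from 0 to 1. Calls ran from 2 to 9 in DND41 (2 without DND41 control 1, control 2 or NBD 2, and 9 without either T-ALL1 control), from 1 to 4 in KOPT-K (1 without KOPT-K control 1 or NBD 2), and from 0 to 7 in T-ALL1 (7 without T-ALL1 control 2), and stayed at 0 in CEM and HPB-ALL. Differences between lines ran from 1 to 9 (9 without T-ALL1 control 2), control levels differed for 24 to 30 genes among CEM, DND41 and HPB-ALL and for 16 to 23 between T-ALL1 and KOPT-K, and the actin difference ran from -0.423 to -0.202. UBTF ran from -0.022 to 0.043 and TCOF1 from -0.051 to 0.068 on average, so neither has a settled direction.

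Other settings moved the following counts of listed genes, and the cause was not tested. The share of all genes that passed is given above only for the average, with a line left out or with all lines as replicates. For the other settings, here and below, no such share is given. Those counts therefore cannot separate a change in the listed genes from a change in how many genes pass. With the mean of all probe sets of a gene, DND41 had 3 calls, 1 gene differed between lines, and the averages of UBTF (-0.040) and TCOF1 (-0.0033) turned. Without probe sets ending in _x_at or _s_at, DND41 had 3, T-ALL1 0 and the difference between lines 1, and RRP12 (0.078 on average, 0.19 in DND41), NOL6 (0.089) and PNO1 in T-ALL1 (-0.18) turned. T-ALL1 had 0 with quantile normalization, with median centring (UBTF -0.0030, TCOF1 -0.0043) and with no filter, where 1 gene differed between lines. With a mean level of at least 7, 9 fell on average, CEM had 1, T-ALL1 2 and the difference between lines 6. A pseudocount of 16 gave 2 in T-ALL1. A trended robust prior gave 8 on average, 1 in CEM, 3 in T-ALL1 and 7 between lines.

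With CEM, DND41 and HPB-ALL fitted apart, 1 gene differed between lines. With T-ALL1 and KOPT-K fitted apart, which leaves 8 arrays, 0 passed on average, in KOPT-K, in T-ALL1 and between lines, and the averages of PNO1 (0.12), MRTO4 (0.032) and UBTF (-0.050) turned. Each line fitted alone gave 0 in DND41, KOPT-K and T-ALL1. Lines as replicates gave 0, also without T-ALL1. Leaving out a line gave 3 lower on average without CEM, DND41 or KOPT-K and 15 without T-ALL1, and 1 difference between lines without CEM, DND41, HPB-ALL or T-ALL1. UBTF (-0.030) and TCOF1 (-0.00047) turned without HPB-ALL, TCOF1 (-0.059) without KOPT-K, and NCL (-0.0083) without T-ALL1. The actin difference was -0.470 without CEM (exact permutation p = 0.0324) and 0.00362 without T-ALL1 (p = 0.957). Every probe set fitted on its own gave 3 on average, 2 in DND41, 1 in KOPT-K, 0 in T-ALL1 and 1 between lines; this setting and the lines as replicates without T-ALL1 were chosen after seeing the data.

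A replicate block (equal numbers paired within a line) gave 3 lower on average, 2 in DND41, 1 in KOPT-K, 0 in T-ALL1 and 0 between lines. Deviations of equally numbered arrays correlated at -0.28 to 0.14 across genes and above 0 in 1 of 5 lines. This shows no steady pairing by number, but with 2 arrays per group it cannot settle whether the arrays were paired. Of single-gene values under settings that keep every array or leave out a line, 487 kept their direction and side of the threshold, 162 lost the threshold, 10 gained it and 16 turned.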
